A study of Homo sapiens with 4 samples.

Results

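The RAS GTPases NRAS and HRAS, the kinases BRAF, MAP2K1 (MEK1), MAP2K2 (MEK2) and MAPK3 (ERK1), and the RAS inhibitor NF1 were described by the H3K27ac-associated loops at their transcript starts. A loop was assigned to a gene when an annotated start of any of its transcripts (GENCODE, hg19) lay inside one of the loop's anchors, the 5 kb bins that it joins. By this rule the 7 genes held 9 of the 27289 loops of the WT list and 11 of the 25621 loops of the STAG2-KD list, 17 different loops in all. They are 7 of 19229 autosomal protein-coding genes, of which 8564 (44.5%) had a loop in either list.

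The loops came from H3K27ac HiChIP in M14, a human melanoma cell line. HiChIP ligates DNA ends that are near each other in fixed nuclei and enriches the ligation products with an antibody, here against acetylated lysine 27 of histone H3, a mark of active promoters and enhancers. Both groups carried a doxycycline-inducible hairpin RNA against STAG2, a subunit of cohesin, and were grown under puromycin. STAG2-KD cells received doxycycline for 5 days, and WT cells were the same line without the drug, so hairpin and drug cannot be told apart. The labels name 4 samples, 2 per group, and 1 loop list per group was analysed here. Each list is thus a single measurement, no difference between the groups had a replicate check, and no test was made. The lists give positions without read counts, so the depth behind each loop is unknown and a loop absent from a list may have been just under the caller's limit. They hold no loops on chromosome X, where STAG2 lies. They give no RNA or protein levels, so the knockdown could not be checked in them. Of 8 melanocyte genes, 7 had a loop at a start and TYR had none, against 1 of 3 keratinocyte, 1 of 3 fibroblast and 2 of 3 lymphocyte genes. A bin can also hold the start of a neighbouring gene, so a loop does not show that a marker is expressed.

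RAS proteins are switches at the inner face of the cell membrane. When bound to GTP they recruit RAF kinases such as BRAF, which phosphorylate the MEK kinases, which in turn phosphorylate the ERK kinases that act on growth and transcription. NF1 speeds the hydrolysis of GTP by RAS and so turns the switch off. In melanoma the cascade is commonly driven by activating mutations of BRAF or NRAS or by loss of NF1, and MEK1 and MEK2 are drug targets.

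The member genes differed in which list held their loops. MAP2K2 had 0 loops in WT and 4 in STAG2-KD, and HRAS had 4 in WT but 1 in STAG2-KD, none in common. BRAF and MAPK3 each had 0 in WT and 1 in STAG2-KD. MAP2K1 had 2 WT loops, 1 of which was its only STAG2-KD loop. NF1 had 2 in each list, 1 of them shared, and NRAS had 1 loop, the same in both. Loops that joined the same 2 bins in both lists are called shared.

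**Figure D1:**
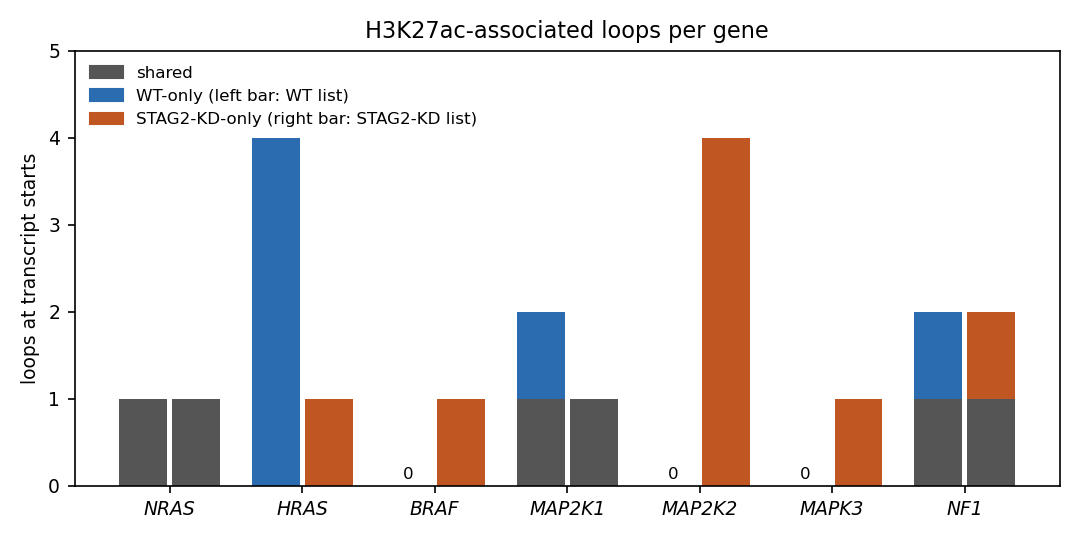
Number of loops (y axis) with a transcript start of each member gene in an anchor, in the WT and STAG2-KD lists, split into shared and private loops. MAP2K2 has 4 loops, all in STAG2-KD, HRAS has 4 in WT and 1 in STAG2-KD, and NRAS has 1 loop that is shared.

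Among the 8564 protein-coding genes with a loop, 1152 (13.5%) had at least 2 times as many loops in WT and at least 2 more, and 824 (9.62%) had as many more in STAG2-KD. By that rule HRAS was higher in WT and MAP2K2 higher in STAG2-KD, 1 gene of the 7 each way, near the background shares. BRAF, MAP2K2 and MAPK3 had loops in the STAG2-KD list only, as did 1055 genes (12.3%), though for BRAF and MAPK3 a WT loop lay 1 bin away. No member had loops in the WT list only, as 1484 genes (17.3%) did. HRAS was the 1 member with loops in both lists and none shared, as were 1269 of the 6025 genes with loops in both (21.1%). With limits set at the members' own values after these were seen, 27 genes (0.315%) had 0 loops in WT and 4 or more in STAG2-KD like MAP2K2, and 72 genes (0.841%) had 4 or more in WT, at most 1 in STAG2-KD and none shared like HRAS. Using the earlier 50% of each chromosome's lines only, an order the files do not explain, MAP2K2 kept its call with 0 and 2 loops and HRAS lost it with 1 and 0. With starts counted up to 5 kb outside an anchor, MAP2K1 was also called higher in WT, with 3 and 1. The median over all genes with a loop was 2 loops in each list, and over the members it was 1 in each.

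**Figure D2:**
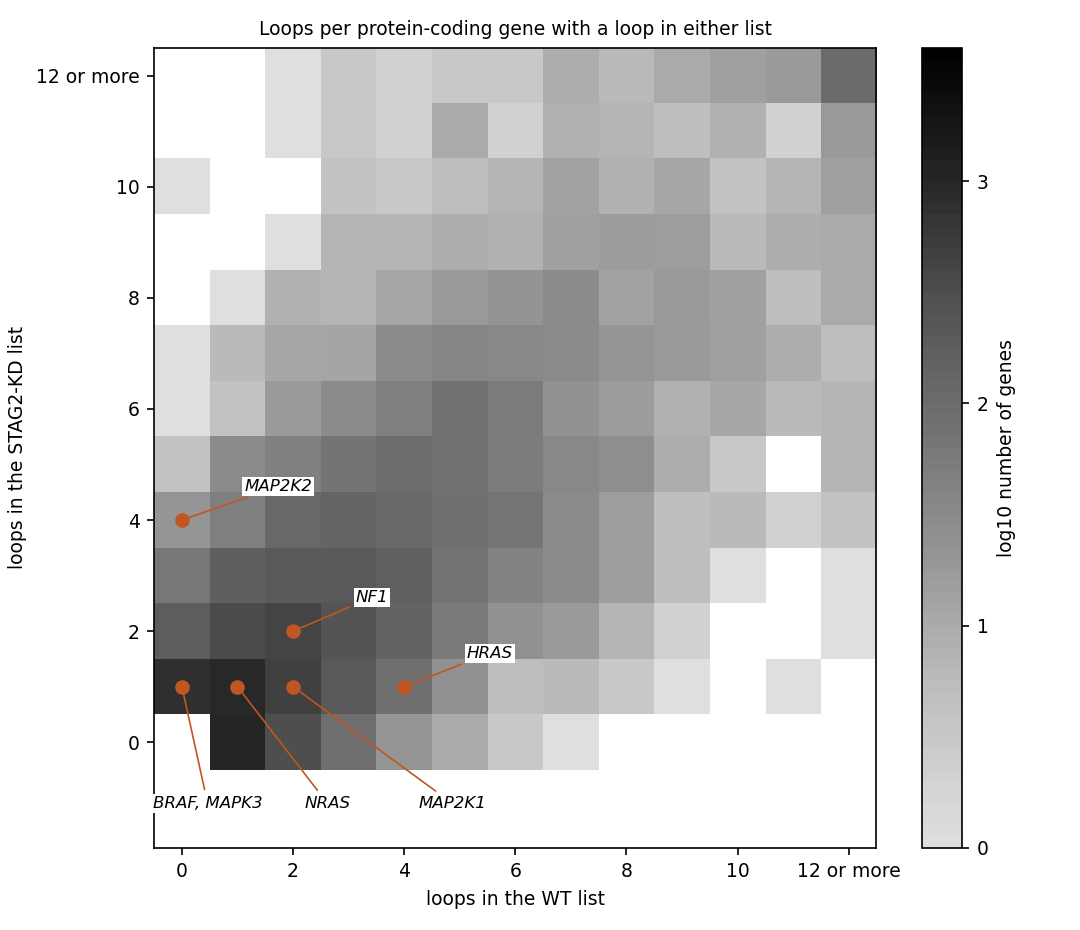
Loops per protein-coding gene in the WT list (x axis) and the STAG2-KD list (y axis) for genes with a loop in either list, with counts of 12 or more pooled. The grey scale gives the log10 number of genes in each square, white squares hold none, and the member genes are marked, MAP2K2 on the left edge at 0 and 4 and HRAS at 4 and 1.

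NRAS lies on the minus strand at chr1:115247090-115259392 (ENSG00000213281) and has 1 annotated transcript. Its single loop left from the bin of its start, chr1:115255001-115260000, and spanned 45 kb. The same loop was in the WT and the STAG2-KD lists. Within 250 kb on either side of the NRAS start 2 WT loops were found against 3 STAG2-KD loops, 2 of them shared, and no loop of either list passed over the start.

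HRAS lies on the minus strand at chr11:532242-537321 (ENSG00000174775), in a gene-dense region, and its main start, that of the canonical transcript, at position 535576 shares the bin chr11:535001-540000 with a start of LRRC56. Loops of the 2 genes cannot be told apart. The 250 bases upstream of the main start held 32 CpG dinucleotides at 77.2% GC, and are shown because HRAS and MAP2K2 had the largest opposite differences in loop number. Capitals mark GGGCGG, the GC box bound by SP1-family factors, on either strand, which occurred 3 times in HRAS and 2 times in MAP2K2 and at least once in 59.5% of all promoters of this length. Both are read 5′ to 3′ on the minus strand, HRAS from chr11:535577-535826 and MAP2K2 from chr19:4124120-4124369.
HRAS: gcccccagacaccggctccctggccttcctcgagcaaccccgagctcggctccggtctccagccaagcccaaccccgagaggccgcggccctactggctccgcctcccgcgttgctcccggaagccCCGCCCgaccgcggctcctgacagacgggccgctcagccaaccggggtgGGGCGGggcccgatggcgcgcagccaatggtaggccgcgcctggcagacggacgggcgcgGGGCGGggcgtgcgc
MAP2K2: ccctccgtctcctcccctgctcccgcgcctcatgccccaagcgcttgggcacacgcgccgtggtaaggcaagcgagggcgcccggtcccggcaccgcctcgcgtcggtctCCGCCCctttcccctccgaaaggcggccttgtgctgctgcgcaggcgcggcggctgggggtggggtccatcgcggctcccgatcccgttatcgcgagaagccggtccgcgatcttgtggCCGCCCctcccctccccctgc

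In WT the HRAS bin was joined to 4 bins upstream, each with protein-coding starts. They lay 25 kb away at LMNTD2 and RASSF7 (chr11:560001-565000), 40 kb away at PHRF1 (chr11:575001-580000), 160 kb away at DEAF1 and TMEM80 (chr11:695001-700000) and 210 kb away at TALDO1 (chr11:745001-750000). RASSF7 is a member of the RAS-association domain family, DEAF1 is a transcription factor and TALDO1 is an enzyme of the pentose phosphate pathway. None of the 4 loops was in the STAG2-KD list, where the HRAS bin had 1 loop, 20 kb downstream to chr11:515001-520000, with the start of the long non-coding RNA ENSG00000289997.

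Of the 4 WT partner bins, 3 still had loops in STAG2-KD, none of them to HRAS. The PHRF1 bin had 5 loops in WT and 4 in STAG2-KD, the DEAF1 and TMEM80 bin 8 and 5, and the TALDO1 bin 5 and 5. The LMNTD2 and RASSF7 bin had 3 and 0. The bin 20 kb downstream of HRAS had 0 loops in WT and 3 in STAG2-KD, which led to HRAS, to PHRF1 over 60 kb and to DEAF1 and TMEM80 over 180 kb. PHRF1 and TALDO1 were joined directly, over 170 kb, in STAG2-KD only. Within 250 kb of the HRAS start 17 WT loops were found against 15 STAG2-KD loops, 5 of them shared. No WT loop and 2 STAG2-KD loops passed over the start.

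Among the 8 start anchors of members and their 17 partner bins, the bin downstream of HRAS was the 1 anchor with an exact match to a strict core of the motif of CTCF, the factor at which cohesin-held loops often end. The core has 12 bases and was searched on both strands. It was found in 7.94% of the 30601 anchors of both lists and in 9.33% of the 9509 anchors with a protein-coding start. The match lay at chr11:518871-518882 on the minus strand and is shown 5′ to 3′ with the core in capitals and 10 bases on either side.
HRAS downstream bin: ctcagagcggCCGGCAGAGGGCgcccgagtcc

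**Figure D3:**
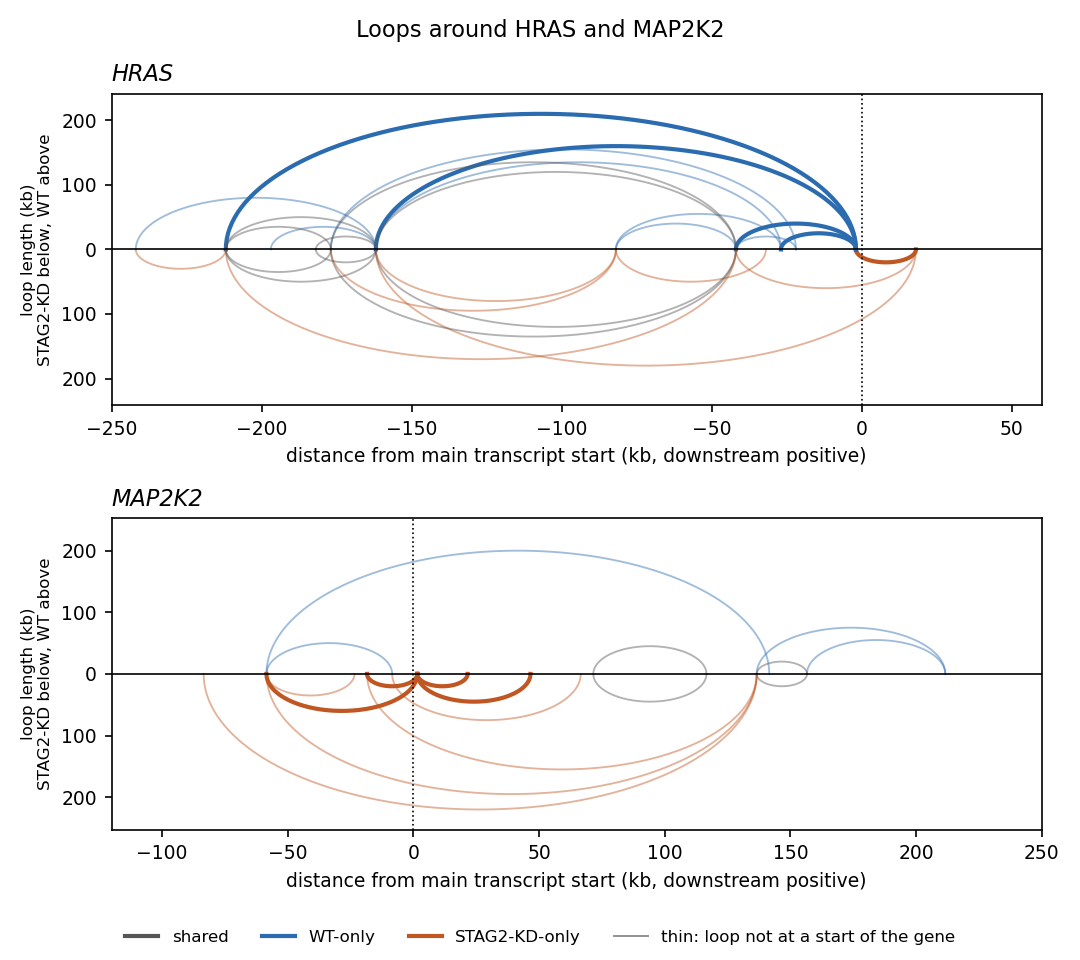
Loops around HRAS and MAP2K2, with the distance from the main transcript start on the x axis (kb, downstream positive) and the loop length on the y axis (kb), WT above and STAG2-KD below the line. Thick arcs are loops at a start of the gene, thin arcs are other loops with both anchors in the drawn window, and the thick arcs of HRAS lie mostly above the line and those of MAP2K2 all below it.

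BRAF lies on the minus strand at chr7:140419127-140624729 (ENSG00000157764), and its 21 transcripts start in 7 bins. It had no loop in WT and 1 in STAG2-KD, which joined the bin of the main start, chr7:140620001-140625000, to the bin chr7:140600001-140605000 in an intron of BRAF, 20 kb downstream. The WT list held a loop of 25 kb from the same intronic bin to the neighbouring bin chr7:140625001-140630000, just upstream of the gene. The intronic bin had 3 loops in WT and 2 in STAG2-KD. The presence of a BRAF loop in one list and not in the other thus rested on a shift by 1 bin. With starts counted up to 5 kb outside an anchor, BRAF had 3 WT loops against 2 STAG2-KD loops, 1 of them shared.

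The main start of BRAF lay 271 bases from the edge between these 2 bins, and the MboI fragment that holds it, chr7:140623558-140625598 (2041 bases), ran 598 bases past the edge. No start fragment of the other 6 members, at the main or the outermost start, crossed a bin edge. MAPK3 starts also lay close to an edge, the outermost at 173 bases and the main start at 459 bases. A main start within 500 bases of the upstream edge was found in 1910 of 18978 protein-coding genes (10.1%). The sequence of the 300 bases upstream of the BRAF start shows where the edge falls, with the bases of the next bin in capitals. It is read 5′ to 3′ on the minus strand from chr7:140624730-140625029.
BRAF: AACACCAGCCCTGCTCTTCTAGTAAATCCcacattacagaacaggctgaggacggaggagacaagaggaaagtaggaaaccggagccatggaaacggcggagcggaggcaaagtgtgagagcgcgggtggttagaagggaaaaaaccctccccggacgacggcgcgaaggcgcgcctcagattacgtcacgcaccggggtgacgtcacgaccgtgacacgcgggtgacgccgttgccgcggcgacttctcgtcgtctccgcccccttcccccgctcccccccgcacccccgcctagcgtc

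Loops that passed over the BRAF start without touching it numbered 6 in WT against 1 in STAG2-KD, and that 1 was shared. This count takes in loops that reached more than 250 kb from the start. The 6 include the WT loop of 25 kb that ended in the bin just upstream of the gene. Within 250 kb of the start 9 WT loops were found against 4 STAG2-KD loops, 3 of them shared. The loop of 200 kb from the MRPS33 start to the body of BRAF was in both lists, and that of 215 kb was in WT only. MRPS33, upstream of BRAF, encodes a protein of the mitochondrial ribosome.

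**Figure D4:**
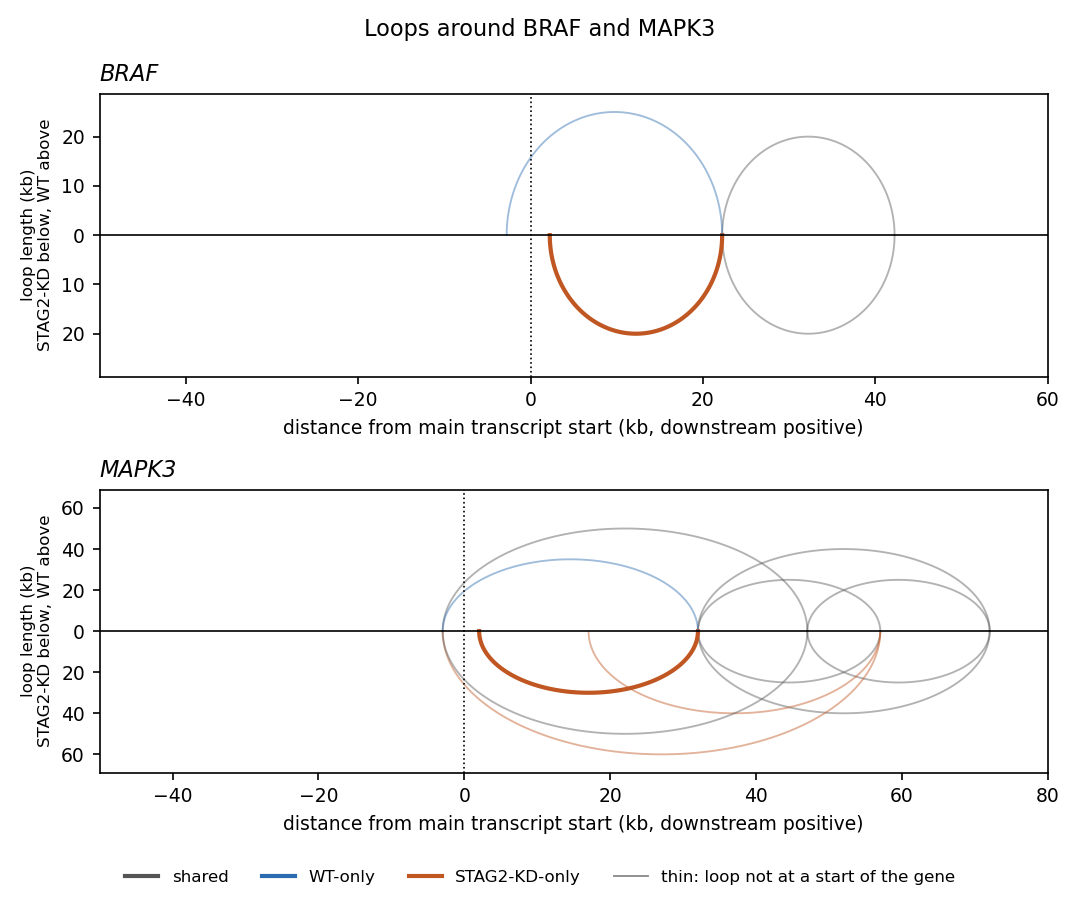
Loops around BRAF and MAPK3, with the distance from the main transcript start on the x axis (kb, downstream positive) and the loop length on the y axis (kb), WT above and STAG2-KD below the line. In both genes the thick STAG2-KD arc and a thin WT arc end at the same downstream bin, while their other ends lie on either side of the start.

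MAP2K1, which encodes MEK1, lies on the plus strand at chr15:66679175-66783994 (ENSG00000169032). The bin of its main start, chr15:66675001-66680000, also holds starts of TIPIN, a replication fork protein, so loops of the 2 genes cannot be told apart there. The loop of 30 kb upstream to a further TIPIN start bin, chr15:66645001-66650000, was in both lists. The loop of 120 kb downstream to chr15:66795001-66800000, with the starts of RPL4 (a ribosomal protein) and ZWILCH (a kinetochore protein), was in WT only. The RPL4 and ZWILCH bin had 2 loops in WT and 0 in STAG2-KD. The upstream TIPIN bin had 5 loops in WT and 1 in STAG2-KD, and its 4 WT-only loops, of 60 kb, 55 kb, 135 kb and 150 kb, led to DIS3L, to 2 bins without a protein-coding start and to RPL4 and ZWILCH. Within 250 kb of the MAP2K1 start, 6 loops in WT stood against 1 in STAG2-KD.

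MAP2K2, which encodes MEK2, lies on the minus strand at chr19:4090319-4124119 (ENSG00000126934). All 4 of its loops were in STAG2-KD and all 4 left from the bin of the main start, chr19:4120001-4125000, which had no loop in WT. Downstream, 1 loop of 20 kb led to chr19:4100001-4105000 within MAP2K2, where other transcripts of the gene start. The other, of 45 kb, led to chr19:4075001-4080000, past the end of the gene, with no transcript start and no protein-coding gene. Upstream, 1 loop of 20 kb led to chr19:4140001-4145000, also with no transcript start and no protein-coding gene. Another, of 60 kb, led to chr19:4180001-4185000, with the starts of ANKRD24 and SIRT6, a NAD-dependent deacylase.

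Of these 4 partner bins, the ANKRD24 and SIRT6 bin had 2 loops in WT and 3 in STAG2-KD, and the other 3 had none in WT. A WT loop of 50 kb joined the ANKRD24 and SIRT6 bin to chr19:4130001-4135000, 2 bins upstream of the MAP2K2 start bin. Within 250 kb of the start 6 WT loops were found against 11 STAG2-KD loops, 2 of them shared. Loops over the start without touching it numbered 1 in WT against 4 in STAG2-KD. The ANKRD24 and SIRT6 bin was thus an anchor in both lists and the MAP2K2 start bin in STAG2-KD alone.

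MAPK3, which encodes ERK1, lies on the minus strand at chr16:30125426-30134827 (ENSG00000102882). It had no loop in WT and 1 in STAG2-KD, 30 kb downstream from chr16:30130001-30135000 to the start of TBX6, a T-box transcription factor, at chr16:30100001-30105000. The WT list joined the TBX6 bin over 35 kb to the neighbouring bin chr16:30135001-30140000, so here too the lists differed by 1 bin. That neighbouring bin had 2 loops in each list, of which the loop of 50 kb to PPP4C was shared. Within 250 kb of the MAPK3 start there were 21 loops in each list and 13 were shared, the most of any member. Counting also loops that reached beyond this window, 9 in WT and 12 in STAG2-KD passed over the start.

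NF1 lies on the plus strand at chr17:29421945-29709134 (ENSG00000196712), and 2 of the 20 bins with a start of its 39 transcripts had loops. The bin of the main start, chr17:29420001-29425000, had 0 loops in WT and 1 in STAG2-KD. That loop led 25 kb upstream to chr17:29395001-29400000, with no transcript start and no protein-coding gene. The other loops left from an internal bin, chr17:29645001-29650000, which holds 3 different start positions of NF1 transcripts. This bin also holds starts of EVI2A and ENSG00000265118, so these loops cannot be assigned to NF1 alone. From there, 1 loop of 50 kb to chr17:29595001-29600000, within NF1 and over an exon of OMG, was shared, and 1 of 25 kb to the start of OMG at chr17:29620001-29625000 was in WT only. EVI2A and OMG are genes nested in an intron of NF1 on the opposite strand. Without the internal bin, NF1 had 0 loops in WT and 1 in STAG2-KD.

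**Figure D5:**
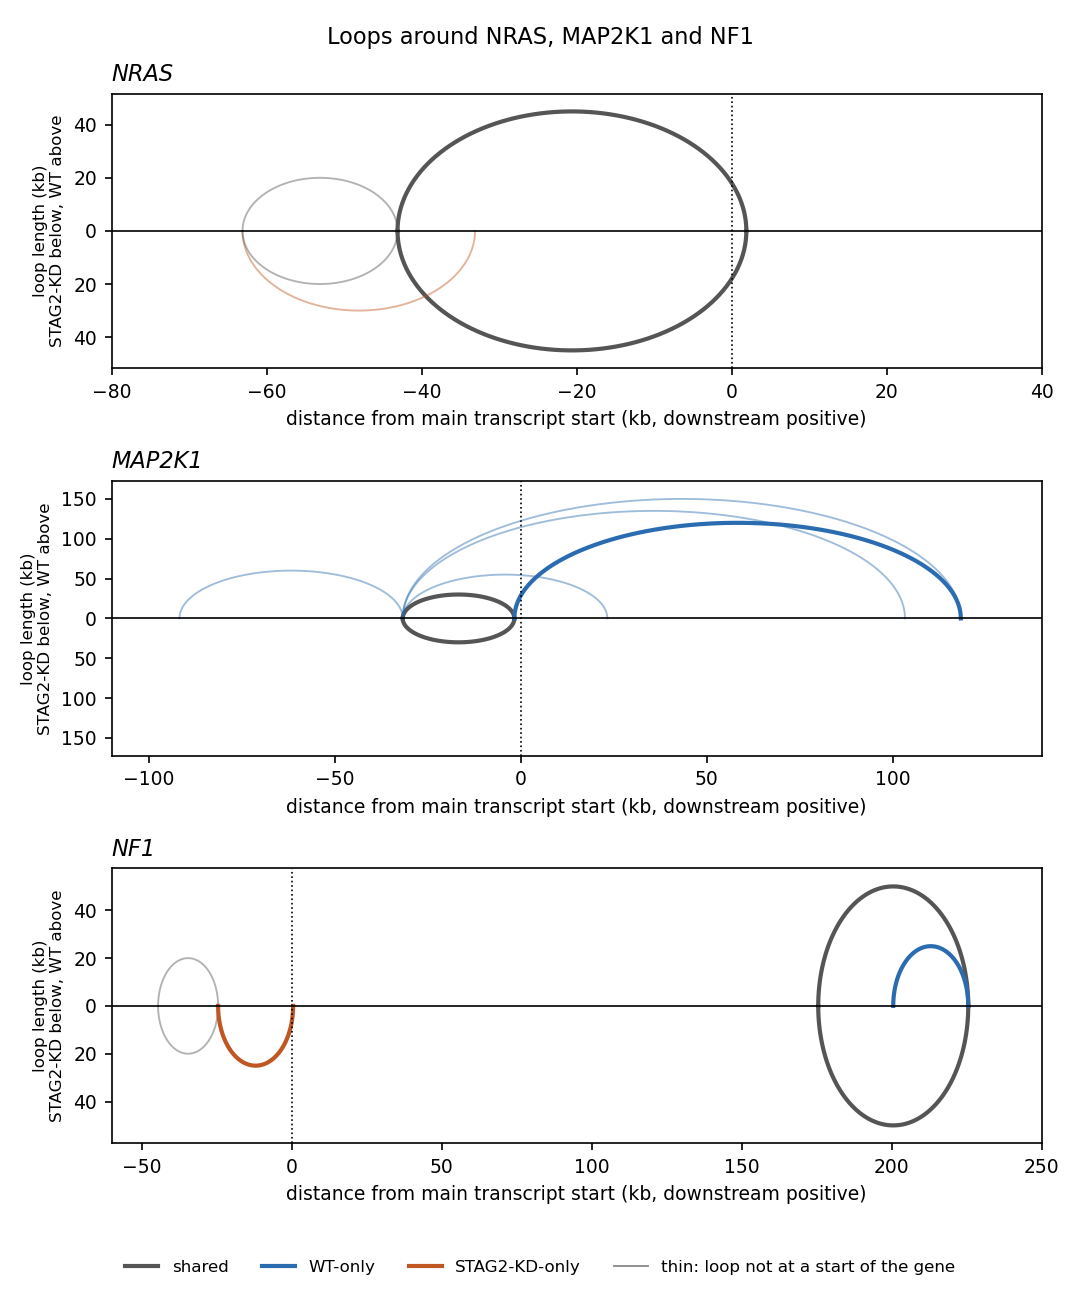
Loops around NRAS, MAP2K1 and NF1, with the distance from the main transcript start on the x axis (kb, downstream positive) and the loop length on the y axis (kb), WT above and STAG2-KD below the line. NRAS has 1 thick arc on each side of the line, MAP2K1 has a second, longer one in WT only, and most thick arcs of NF1 lie far downstream of its main start.

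Together the members shared 3 of 9 WT loops, 33.3% with an exact Clopper-Pearson 95% interval of 7.49% to 70.1%, and 3 of 11 STAG2-KD loops, 27.3% with an interval of 6.02% to 61.0%. These intervals cover the counting of loops only. They treat loops as independent, although 4 of the 9 WT loops left from the HRAS bin. Of the 11 STAG2-KD loops, 4 left from the MAP2K2 bin. With each anchor allowed to differ by 1 bin the STAG2-KD share was 45.5%, and by 2 bins it was 54.5%, while the WT share stayed at 33.3%. The WT loops matched in this way ended outside the member's start bin. They were thus not member loops and could not raise the WT share. With both anchors in the same bins, the shares over all loops were 38.0% and 40.5%. Over loops with a protein-coding start they were 41.2% and 43.4%, all inside the members' intervals. These shares are not a like measure for 45.5% and 54.5%. Of the 8 STAG2-KD-only loops, 2 (BRAF and MAPK3) had a WT loop within 1 bin at both anchors, and of the 6 WT-only loops none had a STAG2-KD loop as close. Over all private loops with a protein-coding start the shares were 9.65% in STAG2-KD and 8.81% in WT. Within 2 bins they were 20.8% and 18.4%, against 3 of the members' 8 STAG2-KD-only loops and none of their 6 WT-only loops.

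The members' loops were short. The median distance between anchors was 45 kb in WT, from 25 kb to 210 kb, and 30 kb in STAG2-KD, from 20 kb to 60 kb, against 90 kb and 85 kb over all loops with a protein-coding start. The 6 WT-only loops had a median of 80 kb, of which HRAS gave 4, and the 8 STAG2-KD-only loops one of 22.5 kb, of which MAP2K2 gave 4. Over all private loops with a protein-coding start the median was 100 kb in each list. Seen from the member's start, 8 of 9 partners lay upstream in WT and 6 of 11 in STAG2-KD. HRAS gave 4 of the upstream partners in WT, and no such share over all loops is given here. The WT loops of HRAS (4), MAP2K1 (2) and NF1 (2) all left from bins that also hold another gene's start. In STAG2-KD 1 loop each of HRAS, MAP2K1 and NF1 did. The pooled distances, directions and partners of the 2 lists thus cannot be assigned to the members alone.

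The partner bin held a protein-coding start in 8 of 9 WT loops and in 5 of 11 STAG2-KD loops. Over all loops with such a start, 34.4% and 33.7% had one at both anchors. These shares count each loop once, although a loop between 2 starts can be viewed from either. They are thus lower than shares counted from start anchors, as the members' were, and are not a like measure. All 6 WT-only loops led to such a bin, at OMG, RPL4 and ZWILCH, and the 4 partners of HRAS. Among the 8 STAG2-KD-only loops, 3 did, at TBX6, at ANKRD24 and SIRT6, and inside MAP2K2.

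The members' 8 start anchors had a median GC content of 50.0%, from 35.0% to 65.9%, and their partners one of 53.1%, against 48.7% over anchors with a protein-coding start and 44.1% over all anchors. The median number of GATC sites, where MboI cuts, was 14 in each of these sets, with 6 to 22 in the members' anchors and 6 in that of BRAF. In the 250 bases upstream of the main start, the number of CpG dinucleotides ran from 20 in NRAS to 34 in BRAF, above the median of 18 over 18978 promoters for each of the 7 genes. GGGCGG occurred 6 times in MAPK3, 3 times in MAP2K1, 2 times in NRAS, 1 time in BRAF and 0 times in NF1. CCGGAA, the core bound by ETS factors, was in HRAS and in 19.6% of all promoters, and CACGTG, the E-box of MYC and MITF, was in NRAS and MAPK3 and in 7.85%. TGANTCA, the AP-1 site, was in none of the 7 and in 4.63% of all promoters.

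TGACGTCA, the full site of the cAMP-responsive factors, was in BRAF and NF1 and in 2.42% of all promoters. The 2 sites are shown because they were the rarest motif found at the members' starts, with the motif in capitals. BRAF is read on the minus strand from chr7:140624807-140624846 and NF1 on the plus strand from chr17:29421813-29421852, both 5′ to 3′. A match is a description of the letters and not evidence that a factor was bound.
BRAF: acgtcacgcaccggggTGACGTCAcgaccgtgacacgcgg
NF1: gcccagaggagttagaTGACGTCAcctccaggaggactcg

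Other genes of the pathway were taken from a list of 24, of which 22 are autosomal and 14 had a loop, 12 in WT and 12 in STAG2-KD. They held 35 WT loops against 43 STAG2-KD loops, 16 of them shared, a median of 1 loop per gene in each list. SPRED2, an inhibitor of the step from RAS to RAF, was the 1 gene called higher in STAG2-KD, with 0 loops against 7. That is 1 of the 14 with a loop, near the 9.62% over all genes with a loop. Among upstream adaptors and the phosphatase PTPN11, SHC1 had 7 loops in WT, 5 in STAG2-KD and 3 shared, GRB2 had 2, 1 and 0, GAB1 had 2, 2 and 0, and PTPN11 had 2, 2 and 1. Among RAS relatives, in the same order, RRAS had 6, 7 and 5, MRAS 2, 3 and 1, and RIT1 1, 0 and 0. Among negative regulators, RASAL2 had 5, 6 and 3, LZTR1 2, 1 and 1, RASA2 0, 1 and 0, and SPRED1 1, 0 and 0. PPP1CB, a phosphatase subunit that helps to activate RAF, had 2, 3 and 0, and RPS6KA1, a kinase activated by ERK, had 3, 5 and 2. RRAS2, SOS1, SOS2, RASA1, KSR1, KSR2, SHOC2 and RPS6KA2 had no loop in either list.

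Likeness to other genes was measured as the number of partner bins that a gene shared with the member, over the partner bins of either gene, both lists together. IRF7, an interferon regulatory factor, was most like HRAS with 3 of 7 bins and SIKE1 most like NRAS with 1 of 2. DIS3L was most like MAP2K1 with 1 of 2 and EEF2 most like MAP2K2 with 2 of 8. MAP2K2 counts 5 partner bins here, since 1 loop joined 2 of its own start bins and each counts as a partner. For MAPK3, TBC1D10B and TLCD3B tied with 1 of 2. No gene outside the members' own bins shared a partner bin with BRAF or NF1.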

How the data were processed

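Per the labels, M14 cells gave 2 WT and 2 STAG2-KD samples of H3K27ac HiChIP, grouped here by title. One loop list per group was analysed. Whether a list merges both replicates was not stated. The authors cut chromatin with MboI, aligned reads to hg19 with HiC-Pro and used hichip-peaks for peaks and FitHiChIP for loops. Versions were not given in the sources used here. The deposited lists have 3 columns (chromosome, left anchor start, right anchor end) and no score, so loops near the caller's limit cannot be told from firm ones. 1 line was off the 5 kb grid.

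Anchors were taken as 5 kb bins, positions are printed counted from 1, and loop length is the distance between anchor midpoints. Transcript starts were those of GENCODE release 44 in GRCh37 positions, and sequences were read from that genome. The start of the Ensembl canonical transcript is the main start. The members, the other pathway genes and the marker lists were chosen with earlier results of these data known. The genes named in the text are the members, the genes with starts in their partner bins, the pathway and marker lists, and the genes with the most similar partner bins. Genes at bins near the members were named after their loops were seen. Alternatives were other definitions of a start, tolerances of 1 and 2 bins, the earlier 50% of each chromosome's lines, and leaving out each member. Some pathway genes and partners are not reported here. Matching was tested on simulated lists. Python 3.11.15 was used, with pandas 2.3.3 for tables, numpy 2.4.6 and scipy 1.17.1 for intervals, and matplotlib 3.10.9 for figures.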

Additional observations from a re-analysis of the deposited data

How the results depend on the processing

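Of 94 values of the pooled results under the alternatives, 87 stayed within the interval or limit of the value reported and 7 moved. This count is no measure of robustness. The intervals of the shares are wide, 7.49% to 70.1% for WT, so that the 60% without HRAS counted as unmoved. BRAF, MAP2K2 and MAPK3 had 0 WT loops, so leaving them out could not change a WT value. With starts counted up to 5 kb outside an anchor, the members had 15 loops in WT. In the earlier 50% of each chromosome's lines they had 3 loops in WT and 4 in STAG2-KD. With the 5′ end of the gene record as the only start, 100% of the WT partners held a transcript start. When each member was left out in turn, the members had 5 (without HRAS) to 9 loops in WT and 7 (without MAP2K2) to 10 in STAG2-KD. Shared loops were 25% to 60% in WT, highest without HRAS, and 20% to 42.9% in STAG2-KD, highest without MAP2K2. The median distance was 45 kb throughout in WT and 27.5 kb to 30 kb in STAG2-KD, and partners with a transcript start were 80% to 100% in WT and 50% to 66.7% in STAG2-KD. Of 140 values for single genes, 31 moved. HRAS and MAP2K2 kept their calls under every definition of a start. In the earlier lines MAP2K2 kept its call with 0 and 2 loops, and HRAS lost it with 1 and 0. With starts up to 5 kb outside the anchor, BRAF had 3 WT loops and 2 STAG2-KD loops with 1 shared, MAPK3 2 and 3 with 1 shared, and MAP2K1 3 and 1, which gave it the call of more loops in WT. Shared STAG2-KD loops were 45.5% within 1 bin and 54.5% within 2 bins, and no share over all loops at these tolerances is given here. No paired analysis was possible because only 1 list per group was analysed. A stricter limit on loops and the leaving out of replicates could not be carried out on such lists, which give no scores.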
